A study of Mus musculus with 11 samples.

Results

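Endothelial nuclei were taken from single-nucleus RNA sequencing of mouse hindbrain and cervical cord, and 89 of the 186863 nuclei that passed quality limits were chosen. A nucleus had to carry at least 500 genes and less than 5% mitochondrial counts, and at least 2 of the 6 genes Flt1, Cldn5, Mecom, Adgrl4, Ptprb and Pecam1 with Flt1 or Cldn5 among them. It could carry no count of the fibroblast gene Dcn or the macrophage gene Csf1r, at most 1 count of the myelin genes Mog and Mag together, and less than 0.2% of its counts from the granule cell genes Gabra6, Fat2, Chn2 and Etv1. The nuclei were thus chosen by these genes, whose levels are given only as a description. A count here is a unique molecular identifier (UMI), which stands for 1 captured RNA molecule.

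The tissue was cerebellum and brainstem of 1 hemisphere with cervical spinal cord, from male mice aged 8 to 12 weeks. Il12rb2fl/fl mice carry loxP sites in Il12rb2, the gene of a receptor subunit for interleukin-12, and NestinCre/+Il12rb2fl/fl littermates carry a Cre recombinase under the Nestin promoter as well, so the floxed allele was shared by all groups. Nestin-Cre recombines mainly in the neural lineage, and endothelial cells are not its intended target. Experimental autoimmune encephalomyelitis (EAE) was induced with a peptide of myelin oligodendrocyte glycoprotein in complete Freund's adjuvant plus pertussis toxin and was studied at day 10, and the other mice were labelled naive. The comparison asked how loss of the receptor in neuroectodermal cells changes the inflamed tissue. There were 4 libraries of Il12rb2fl/fl mice with EAE (fl EAE), 4 of NestinCre/+Il12rb2fl/fl mice with EAE (NestinCre EAE), 2 of naive Il12rb2fl/fl mice (fl naive) and 1 of naive NestinCre/+Il12rb2fl/fl mice (NestinCre naive). The library called replicate 4 in each EAE group carries no number in its labels, so that 4 is only a name. Replicates 1 to 3 of fl EAE and of NestinCre EAE were sequenced in run 1. Replicate 4 of each EAE group and fl naive 2 were sequenced in run 2, whereas the remaining libraries, fl naive 3 with NestinCre naive 2, made up run 3.

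Endothelial cells line all vessels. In the central nervous system they form the blood-brain barrier by sealing their junctions and by moving nutrients and waste through dedicated transporters, a programme maintained by Wnt signaling. Under inflammation they can show adhesion molecules to passing leukocytes, release chemokines and present antigen on major histocompatibility complex (MHC) class I. Venules are the main site where leukocytes leave the blood, and interferon-γ induces both guanylate-binding proteins and the class I pathway in most cell types.

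Library totals ran from 40761007 to 86063464 UMIs over 13120 to 22951 barcodes. The chosen nuclei held 2 to 18 per library and 10631 to 198892 UMIs per library. Of the 89 barcodes, 2 also occurred in another library and 0 of these were chosen there, whereas 4288 barcodes of all nuclei occurred in more than 1 library. The small number of nuclei limited every comparison.

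The label was checked against 15 endothelial genes that the selection did not use, among them Cdh5 (VE-cadherin), Tek and Tie1 (angiopoietin receptors), Erg (a transcription factor) and Ly6c1. In 63 of the 89 nuclei these genes gave at least 2 UMIs and at least 0.1% of the UMIs, with a median of 0.897%. In the other 26 nuclei the median was 0% and the highest value 0.0575%. The marker count separated the 2 kinds. Of 54 nuclei with 4 to 6 selection markers 53 passed this identity check, of 9 nuclei with 3 markers 5 passed, and of 26 nuclei with exactly 2 markers 5 passed. Just outside the selection, 299 nuclei carried only 1 marker and 3 of them (1.00%) passed. These 299 were 21, 11, 23 and 16 in fl EAE replicates 1 to 4 and 42, 33, 37 and 48 in NestinCre EAE. The naive libraries held 19, 18 and 31. Nuclei within quality limits that carried Flt1 or Cldn5 numbered 67 to 86 per library in fl EAE and 111 to 181 in NestinCre EAE. The cause of this difference was not tested.

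The 26 nuclei that failed the check were large, with a median of 18358 UMIs and 4896.5 genes against 2266 UMIs and 1566 genes in the nuclei that passed. They held 69.0% of all UMIs of the 89. Their leading genes against all other nuclei were Itpr1, an inositol trisphosphate receptor abundant in Purkinje neurons, at 2194 CPM against 253 (CPM scales a gene's UMIs to all UMIs of the nuclei, on the counts-per-million scale), Kcnip1, a potassium channel partner of neurons, at 873 against 156, and Prkg1 at 2704 against 520. These nuclei are therefore named only by the rule that chose them. Their share of the UMIs was 0% in fl EAE 1 and fl naive 2, 18.4% in NestinCre EAE 1, 41.4% in NestinCre EAE 3 and between 54.3% and 96.4% in the other libraries. Tests across genes of EAE against naive were run on all 89 nuclei and again on the 63 nuclei with 3 or more markers. Tests of genotype in EAE used the 8 EAE libraries, which held 66 of the 89 and 42 of the 63. The 63 identity-checked nuclei, a different set that shares most of its members with the latter, were defined after the values had been seen and are described without tests.

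**Figure D1:**
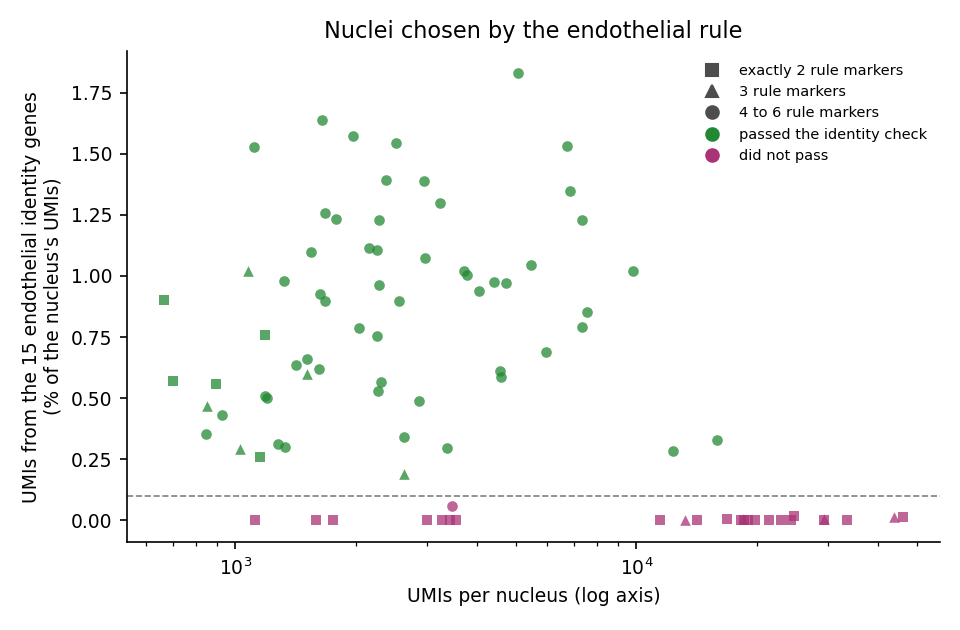
UMIs per nucleus (horizontal, log scale) against the percent of UMIs from 15 endothelial genes not used in the selection (vertical), 1 point per nucleus, for the 89 chosen nuclei. The 63 identity-checked nuclei lie above 0.1%, and 18 of the 20 nuclei with more than 10000 UMIs lie below it.

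The nuclei of the rule were rare in every library, and no difference in their share between genotypes or states beyond the spread between libraries was detected. In fl EAE replicates 1 to 4 they made up 0.0257%, 0.0524%, 0.0394% and 0.0660% of the nuclei that passed quality limits, and in NestinCre EAE replicates 1 to 4 the share was 0.0374%, 0.0409%, 0.0308% and 0.0786%. The shares were 0.0447% in fl naive 2, 0.0119% in fl naive 3 and 0.0809% in NestinCre naive 2. The fl EAE, NestinCre EAE and fl naive libraries overlapped, and the single NestinCre naive library had the highest share of the 11. These shares count the 26 nuclei that failed the identity check, among them 5 of the 12 chosen in fl EAE 4 and 7 of the 18 in NestinCre EAE 4. Identity-checked nuclei alone averaged 0.0318% in fl EAE and 0.0292% in NestinCre EAE. They numbered 4, 6, 5 and 7 in fl EAE replicates 1 to 4 and 4, 4, 2 and 11 in NestinCre EAE. Exact 95% binomial intervals of single libraries were as wide as 0.0419% to 0.141% in NestinCre naive 2. These intervals cover counting error only.

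The mean share was 0.0469% ± 0.0215 (SD, n = 4) in NestinCre EAE and 0.0459% ± 0.0173 (SD, n = 4) in fl EAE, and the exact two-sided permutation test gave p = 0.914, where 0.0286 is the smallest p that this design allows. All EAE libraries averaged 0.0464% ± 0.0181 (SD, n = 8) and the naive libraries 0.0458% ± 0.0345 (SD, n = 3), with an exact two-sided permutation p = 1. With 3 or more markers required, NestinCre EAE averaged 0.0270% and fl EAE 0.0332%, and the exact permutation p was 0.343. A share depends on how well nuclei were released and sorted, and fewer endothelial cells cannot be told apart from less complete recovery.

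**Figure D2:**
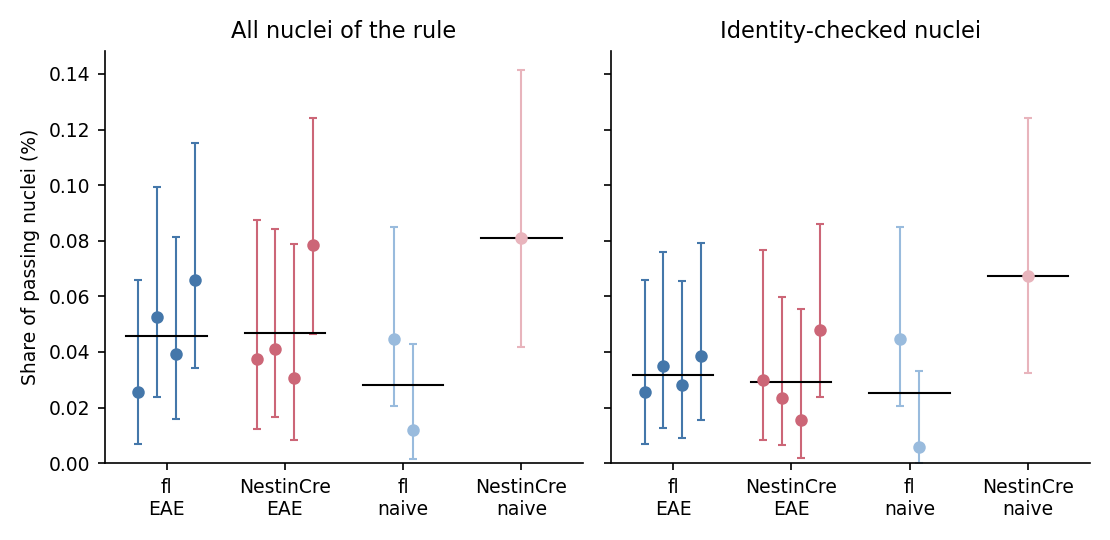
Chosen nuclei as a percent of the nuclei that passed quality limits (vertical) for each library, by group, with exact 95% binomial intervals, for all nuclei of the rule and for the identity-checked nuclei. The fl EAE, NestinCre EAE and fl naive libraries overlap, and NestinCre naive 2 is highest, at 0.0809% for all nuclei of the rule.

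The identity-checked nuclei carried the profile of brain endothelium in every group. Outside the selection markers, among the 64 genes with at least 200 UMIs in these nuclei, the gene with the largest excess over all other nuclei was Slco1a4, an organic anion transporter of the barrier, at 3341 CPM against 0.919. Ly6c1, a surface protein of the endothelium, was at 2644 against 1.61, and the chemokine Cxcl12 at 1823 against 2.96. Slco1c1, which carries thyroid hormone across the barrier, was at 1320 against 2.31, the drug efflux pump Abcg2 at 1220 against 7.21, the glucose transporter Slc2a1 at 1663 against 11.2 and the Wnt transcription factor Lef1 at 1071 against 5.02. These genes follow from the choice of nuclei and describe it.

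Rgs5 and Vtn, also among the leading genes, are markers of pericytes, the mural cells that wrap capillaries. Rgs5 was at 2281 CPM and Vtn at 1051. At least 1 UMI of 11 mural genes was present in 43 of the 63 nuclei, and in 35 of them 3 or more UMIs. The mural list made up 0.336% ± 0.171 (SD, n = 4) of the UMIs in fl EAE, 0.691% ± 0.485 (SD, n = 4) in NestinCre EAE, 0.149% in fl naive and 0.759% in NestinCre naive. Rgs5 was found in 40 nuclei and Vtn in 14, while the smooth muscle genes Acta2 and Tagln gave at most 1 UMI in any group. A pericyte joined to an endothelial nucleus, free RNA and expression by the endothelium itself were not told apart. Scrublet, a doublet caller, marked 3 of the 63 nuclei.

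Selection markers varied widely between libraries. Flt1, a receptor for vascular endothelial growth factor, ran from 2996 to 7520 CPM in the 4 fl EAE libraries and from 1285 to 5586 in the 4 NestinCre EAE libraries. Cldn5, the main claudin of the barrier, was at 494, 1385, 1489 and 1193 in fl EAE and at 2770, 1647, 2248 and 2192 in NestinCre EAE, so the groups did not overlap, whereas fl naive 2 was at 2565 and NestinCre naive 2 at 921. In all other nuclei Cldn5 was at 0.292 and 0.693 CPM in the fl EAE and NestinCre EAE groups.

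The summed level of the barrier transporters overlapped between fl EAE, NestinCre EAE and fl naive. The 15 barrier transporters together made up 1.25% ± 0.450 (SD, n = 4) of the UMIs in fl EAE, 1.37% ± 0.169 (SD, n = 4) in NestinCre EAE, 1.72% (n = 2) in fl naive and 1.35% in the NestinCre naive library. Slco1a4 was at 1730, 3730, 3560 and 4097 CPM in fl EAE and at 3818, 5084, 3051 and 3062 in NestinCre EAE, and the groups overlapped. Abcb1a, the drug efflux pump P-glycoprotein, was at 838 CPM pooled over the fl EAE nuclei, at 1027 in NestinCre EAE, at 951 in fl naive and at 1005 in NestinCre naive. Slc2a1 was at 710, 1012, 1748 and 2126 in fl EAE and at 1947, 2435, 1927 and 3097 in NestinCre EAE, with overlap. The 10 tight junction genes, led by the scaffold Tjp1, made up 0.290% ± 0.0477 (SD, n = 4) in fl EAE and 0.386% ± 0.0971 (SD, n = 4) in NestinCre EAE.

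The 17 genes of the Wnt barrier programme made up 0.173% to 0.394% of the UMIs in fl EAE, 0.247% to 0.427% in NestinCre EAE and 0.410% to 0.678% in the 3 naive libraries, and 0 of the 9 genes with 20 or more UMIs were lower in every EAE library than in every naive library. The highest fl EAE library, fl EAE 4, lay just below NestinCre naive 2, and without the nucleus that gave most UMIs of the list in each library they were at 0.430% and 0.386%, so no separation held. The low library, fl EAE 1, held 4 nuclei, and its 2 largest nuclei had 15895 and 12340 UMIs. Its endothelial identity genes were also the lowest, at 0.414% against 0.767% to 1.19% in the other 7 EAE libraries. Scrublet, the doublet caller, marked its nucleus of 12340 UMIs. With 32373 UMIs, fl EAE 1 weighed most in every value pooled over the fl EAE nuclei.

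By vessel type, capillary genes such as the lipid transporter Mfsd2a and the transferrin receptor Tfrc gave UMIs in 56 of the 63 nuclei. Arterial genes alone were present in 16 nuclei, venous genes alone in 11, both in 30 and neither in 6. With any single UMI counted, these lists thus did not separate the nuclei into vessel types. The arterial list holds Sox17 and the venous list Vwf, both also genes of the identity check. The venous list also holds Il1r1 and Lcn2, which are in the inflammatory list too. The 7 capillary genes made up 0.423% ± 0.136 (SD, n = 4) in fl EAE, 0.458% ± 0.124 (SD, n = 4) in NestinCre EAE, 0.463% in fl naive and 0.589% in NestinCre naive.

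In the identity-checked nuclei the summed level of the leukocyte adhesion list was higher in every EAE library than in every naive library, but this separation rested on single nuclei and 0 of its 3 genes with 20 or more UMIs showed it, while the lists of venous and of inflammatory genes had higher means in EAE with overlapping libraries. The venous and inflammatory lists share the genes Il1r1 and Lcn2, so their results are not separate. Single nuclei carried much of each list. The adhesion list, 11 genes, was at 0.0463%, 0.229%, 0.0777% and 0.0674% of UMIs in fl EAE and at 0.0749%, 0.0931%, 0.177% and 0.0939% in NestinCre EAE. In the naive libraries it was at 0.0197% in fl naive 2, at 0% in fl naive 3 and at 0.0251% in NestinCre naive 2. The ranges were thus apart, although the interval of fl naive 3, which held 1 nucleus and 1623 UMIs, reached 0.227%. All 10 UMIs of NestinCre EAE 1 came from 1 nucleus, as did 10 of the 12 of fl EAE 3. Without the nucleus that gave most UMIs of the list in each library, a choice made after seeing the data, these 2 libraries were at 0% and 0.0140%, fl naive 2 at 0.0155% and NestinCre naive 2 at 0.0160%, so the separation of EAE from naive was lost.

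Vcam1 gave 50 of the 83 UMIs of this list in fl EAE and 21 of the 61 in NestinCre EAE. It encodes an adhesion molecule that integrins of T cells bind. The identity-checked nuclei held 0, 34, 7 and 9 Vcam1 UMIs in fl EAE replicates 1 to 4 and 8, 2, 1 and 10 in NestinCre EAE replicates 1 to 4, and 0 in all 3 naive libraries. Over the pooled nuclei this was 582 CPM (exact 95% Poisson interval 432 to 768) in fl EAE and 337 (209 to 515) in NestinCre EAE, against upper limits of 219 in fl naive and 103 in NestinCre naive. In fl EAE 2, 24 of the 34 UMIs came from 1 nucleus. Icam1 gave 1 UMI in fl EAE, 3 in NestinCre EAE, 0 in fl naive and 2 in NestinCre naive, and the selectin genes Selp and Sele gave 0 in every library, which allows up to 59.2 CPM in the pooled NestinCre EAE nuclei.

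The venous list of 9 genes was at 0.0556% to 0.530% in the 8 EAE libraries and at 0% to 0.0865% in the 3 naive libraries, which overlapped. Within it, 3 genes were higher in every EAE library than in every naive library. Tmem252, a membrane protein gene of venous endothelium, gave 7, 1, 2 and 4 UMIs in fl EAE, 5, 10, 2 and 16 in NestinCre EAE and 0 in each naive library. Il1r1, the receptor for interleukin-1, gave 1, 10, 8 and 5 UMIs in fl EAE, 4, 4, 1 and 2 in NestinCre EAE, 0 in both fl naive libraries and 1 in NestinCre naive. For Il1r1, fl EAE 1 and NestinCre naive 2 thus differed only by their totals, 32373 and 35827 UMIs. Each 0 of fl naive 3 rests on 1623 UMIs. Lcn2, which encodes the iron-binding acute-phase protein lipocalin-2, gave 1, 6, 1 and 1 UMIs in fl EAE, 1, 47, 1 and 3 in NestinCre EAE and 0 in each naive library, and 46 of the 47 came from 1 nucleus. That nucleus of NestinCre EAE 2, which Scrublet marked as a doublet, gave 66 of the 74 venous UMIs of its library, and without it the venous list of that library was at 0.0866%. Over 2619 genes with 20 or more UMIs in these nuclei, 15 (0.573%) were higher in every EAE library than in every naive library and 23 (0.878%) were lower.

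Inflammatory activation genes, 18 in all, were at 0.194% ± 0.0649 (SD, n = 4) in fl EAE, at 0.289% ± 0.190 (SD, n = 4) in NestinCre EAE and between 0.0616% and 0.103% in the naive libraries, where fl EAE 1, at 0.102%, lay just below NestinCre naive. The same nucleus gave 59 of the 78 UMIs of this list in NestinCre EAE 2, which was at 0.559% with it and at 0.206% without it. Its Lcn2 UMIs count in both the venous and the inflammatory list. Of the 7 inflammatory genes with 20 or more UMIs, 2 were higher in every EAE library than in every naive library. These were Il1r1 and Lcn2, already given above as venous genes. The oncostatin M receptor Osmr gave 7, 3, 3 and 12 UMIs in fl EAE, 1, 5, 3 and 11 in NestinCre EAE, 0 in both fl naive libraries and 4 in NestinCre naive. In all other nuclei Osmr was at 0.379 and 0.749 CPM in the 2 EAE groups, against 291 and 321 in the pooled endothelial nuclei. Nfkbia, an inhibitor and target of NF-κB, was at 443 CPM in fl EAE, at 755 in NestinCre EAE, at 178 in fl naive and at 419 in NestinCre naive.

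Tests of EAE against naive across genes called 0 genes in fl and 0 in NestinCre with edgeR's quasi-likelihood test after Benjamini-Hochberg adjustment (0% of 6629). At an unadjusted p under 0.05 there were 677 genes (10.2%) in fl and 944 (14.2%) in NestinCre, and DESeq2 called 105 and 110. These fits used all 89 nuclei, and fl naive 3 held 43985 of its 45608 UMIs in 1 nucleus that failed the identity check. Among the genes with the smallest p were Ncam2 and Rbms3 on the higher side and Calcrl, Cobll1 and Btg2 on the lower side in fl. Over all genes in the fit the log2 fold change had a median of 1.11 in fl and 0.88 in NestinCre. With 3 or more markers the unadjusted counts were 80 of 3953 (2.02%) and 171 (4.33%), and 0 were called. That fit kept the nucleus of fl naive 3 with 43985 UMIs. It also kept the nuclei of NestinCre naive 2 that failed the identity check, with 29361 and 13214 UMIs. The fit adjusts for sequencing run, and run 3 held no other library than fl naive 3 and NestinCre naive 2. The comparison in fl therefore had in effect 1 naive library, fl naive 2, since fl naive 3 served to set the run 3 term. Through that term the comparison in NestinCre depended on fl naive 3 and its large nucleus. The difference between the 2 genotypes in their response to EAE was tested as an interaction. It called 0 of 6629 genes (0%) with edgeR, with 573 (8.64%) at an unadjusted p under 0.05, and DESeq2 called 1. The single NestinCre naive library was assumed to vary like the other groups. For the interaction its counterpart was in effect fl naive 3, the only other library of run 3.

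**Figure D3:**
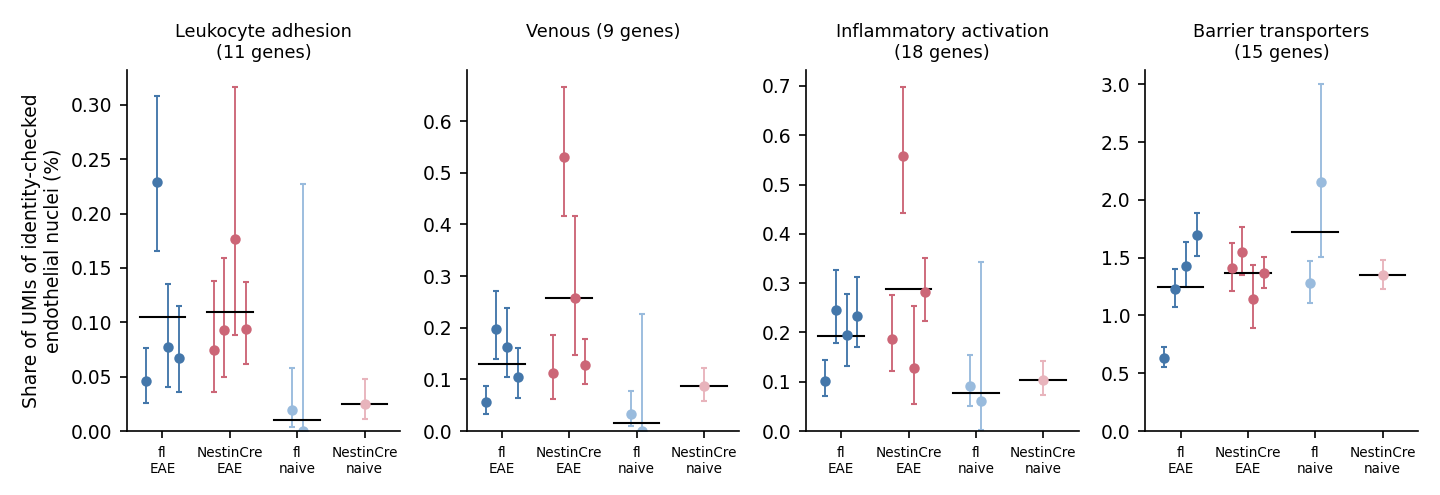
Percent of UMIs (vertical) from each gene list in the identity-checked nuclei, 1 point per library by group. The leukocyte adhesion list lies at 0.0463% to 0.229% in the 8 EAE libraries and at 0% to 0.0251% in the 3 naive libraries.

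Between the genotypes in EAE, interferon-induced and MHC class I genes had higher mean levels in the identity-checked nuclei of NestinCre mice, although no single gene passed the test. The interferon-induced list, 43 genes, made up 0.173%, 0.325%, 0.492% and 0.664% of the UMIs of the identity-checked nuclei in fl EAE replicates 1 to 4. In NestinCre EAE replicates 1 to 4 it made up 1.15%, 0.602%, 0.803% and 0.985%. The groups overlapped only between fl EAE 4 and NestinCre EAE 2, which came from different runs. Within run 1 the highest fl EAE library was at 0.492% and the lowest NestinCre EAE library at 0.602%, and within run 2 the libraries were at 0.664% and 0.985%. The means were 0.413% ± 0.212 (SD, n = 4) and 0.886% ± 0.237 (SD, n = 4), a ratio of 2.14. The naive libraries were at 0.263%, 0% and 0.279%. For this list and the class I list below, fl EAE 1 was the lowest EAE library, as it was for the endothelial identity genes. Single nuclei gave 90 of the 154 UMIs of NestinCre EAE 1, 32 of the 50 of NestinCre EAE 3, 54 of the 76 of fl EAE 3 and 74 of the 128 of fl EAE 4. Without the nucleus that gave most UMIs of the list in each library, the fl EAE libraries were at 0.188%, 0.302%, 0.390% and 0.329% and the NestinCre EAE libraries at 0.669%, 0.692%, 0.393% and 0.895%. NestinCre EAE 3 held only 2 identity-checked nuclei and 6227 UMIs. Its 0.393% was 18 UMIs of 1 nucleus of 4579 UMIs, so the gap to 0.390% is not a separation.

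All 21 NestinCre EAE nuclei and all 22 fl EAE nuclei carried at least 1 UMI of the list. Ly6a, a surface protein of brain endothelium that interferon raises, accounted for 110 of the 321 UMIs in fl EAE and 170 of the 571 in NestinCre EAE. It was at 803, 1385, 2266 and 1193 CPM in fl EAE, at 2995, 1790, 2248 and 3166 in NestinCre EAE, at 329 and 0 in the fl naive libraries and at 1144 in NestinCre naive.

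**Figure D4:**
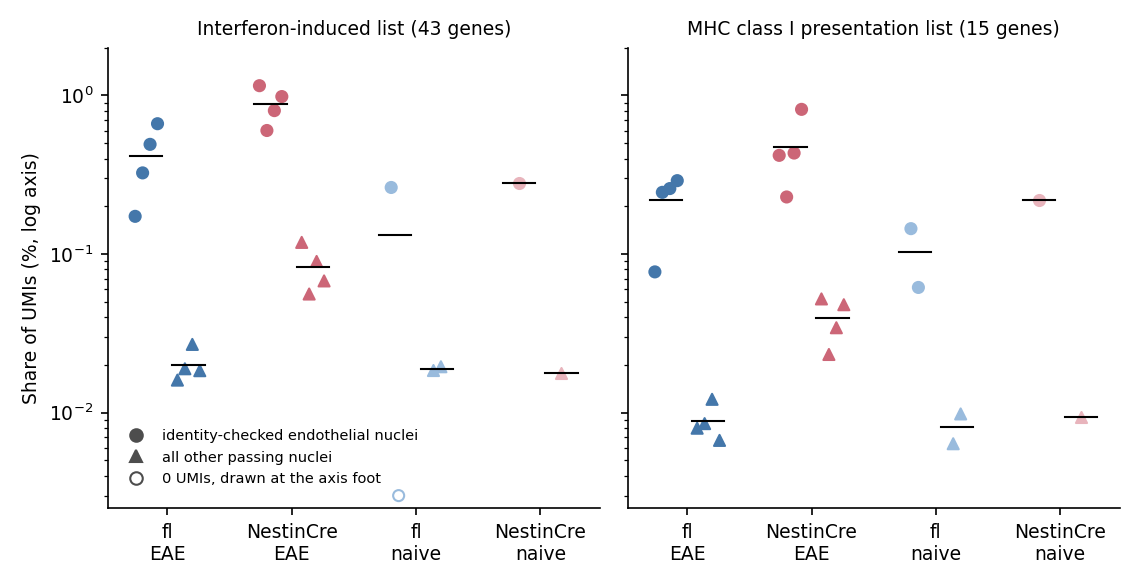
Percent of UMIs (vertical) from the interferon-induced and MHC class I lists for each library by group, in the identity-checked endothelial nuclei and in the other nuclei. The NestinCre EAE libraries lie at 0.602% to 1.15% and the fl EAE libraries at 0.173% to 0.664% for the interferon-induced list in the endothelial nuclei.

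MHC class I presentation, 15 genes, was at 0.0772%, 0.245%, 0.259% and 0.290% of UMIs in fl EAE and at 0.419%, 0.229%, 0.434% and 0.818% in NestinCre EAE. The means were 0.218% ± 0.0957 (SD, n = 4) and 0.475% ± 0.247 (SD, n = 4), a ratio of 2.18, and NestinCre EAE 2 lay within the fl EAE range. Without the nucleus that gave most UMIs of the list in each library, NestinCre EAE 1 and 2, at 0.261% and 0.225%, lay within the fl EAE range of 0.0599% to 0.311%. Without NestinCre EAE 4 the difference of the means was 0.143 percentage points in place of 0.257. Class I molecules carry peptides from inside the cell to CD8 T cells, with β2-microglobulin (B2m) as their light chain.

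H2-K1 (chr17:34214987-34219321, GRCm39), a class I heavy chain, was at 154, 426, 518 and 519 CPM in fl EAE and at 1198, 215, 1124 and 1635 in NestinCre EAE. Only NestinCre EAE 2 lay within the fl EAE range. The pooled nuclei were at 361 (exact 95% Poisson interval 245 to 512) and 1172 (919 to 1474), and the naive nuclei at 297 in fl and 530 in NestinCre. Here fl EAE 1, the lowest of the EAE libraries, weighed most in the pooled fl EAE value. In edgeR's fit on the 66 nuclei of the EAE libraries the log2 fold change of H2-K1 was 1.38 ± 0.62 (SE) with an unadjusted p of 0.0358, and the Benjamini-Hochberg adjusted p was 1.00. B2m was at 124, 533, 583 and 726 in fl EAE and at 973, 788, 642 and 1496 in NestinCre EAE, with a fitted log2 fold change of 0.84 ± 0.54 (SE) and an unadjusted p of 0.132. H2-D1 was at 61.8, 853, 388 and 726 and at 824, 286, 803 and 1983. The immunoproteasome subunit Psmb8 gave 1, 2, 2 and 1 UMIs in fl EAE and 1, 2, 3 and 14 in NestinCre EAE. Class I genes are close relatives, and reads could be split between them.

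Guanylate-binding proteins attack vacuoles of microbes inside cells and are induced by interferon-γ. Gbp5 (chr3:142199739-142228105) gave 0, 0, 0 and 3 UMIs in fl EAE and 13, 1, 3 and 14 in NestinCre EAE, and 2, 0 and 5 in the naive libraries. The 13 UMIs of NestinCre EAE 1 came from 1 nucleus and the 14 of NestinCre EAE 4 from 4 nuclei. Gbp4 (chr5:105263633-105287609) gave 2, 2, 2 and 1 UMIs in fl EAE and 6, 3, 1 and 17 in NestinCre EAE, which was 51.9 to 129 CPM against 161 to 591, without overlap. The 161 was 1 UMI of NestinCre EAE 3 and the 129 was 2 UMIs of fl EAE 3, so the separation hung on single molecules. Of 1848 genes, 22 (1.19%) were higher without overlap and 24 (1.3%) were lower. Gbp2 gave 0, 0, 1 and 2 UMIs in fl EAE, 2, 2, 6 and 6 in NestinCre EAE and 0 in the naive libraries. Gbp genes lie in clusters of close paralogs, so their reads may be shared.

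Rsad2 (chr12:26492745-26506451), which encodes the antiviral enzyme viperin, gave 0, 2, 1 and 2 UMIs in fl EAE and 17, 3, 4 and 3 in NestinCre EAE, where the 17 came from 1 nucleus. Iigp1, an immunity-related GTPase, gave 1, 0, 2 and 4 UMIs in fl EAE and 9, 6, 0 and 19 in NestinCre EAE, in 5 of 22 and 11 of 21 nuclei. Cxcl10, a chemokine that draws T cells, gave 0 UMIs in every fl EAE and naive library and 9, 0, 1 and 8 in NestinCre EAE, in 3 of 21 nuclei. Trim30a differed in direction, with 3, 4, 4 and 14 UMIs in fl EAE and 2, 3, 0 and 3 in NestinCre EAE.

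The sequences before 3 of these genes are shown because their transcripts had higher values in NestinCre EAE. Their promoters differ in exact matches to the strings given below. They run from 250 bases before to 50 after the start of the canonical transcript in GENCODE on GRCm39, read 5′ to 3′ on the strand of the gene. Capitals mark GAAANNGAAA or its reverse complement, the core of the interferon-stimulated response element, and TTCNNNGAA, the core of the γ-activated site.
Gbp5, chr3:142202284-142202583, plus strand: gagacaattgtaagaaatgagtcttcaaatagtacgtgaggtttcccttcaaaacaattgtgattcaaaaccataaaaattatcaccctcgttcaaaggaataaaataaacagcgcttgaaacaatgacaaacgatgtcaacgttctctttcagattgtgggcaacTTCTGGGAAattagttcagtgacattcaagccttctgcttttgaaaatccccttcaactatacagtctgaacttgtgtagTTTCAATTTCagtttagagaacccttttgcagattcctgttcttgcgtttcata
Rsad2, chr12:26506402-26506701, minus strand: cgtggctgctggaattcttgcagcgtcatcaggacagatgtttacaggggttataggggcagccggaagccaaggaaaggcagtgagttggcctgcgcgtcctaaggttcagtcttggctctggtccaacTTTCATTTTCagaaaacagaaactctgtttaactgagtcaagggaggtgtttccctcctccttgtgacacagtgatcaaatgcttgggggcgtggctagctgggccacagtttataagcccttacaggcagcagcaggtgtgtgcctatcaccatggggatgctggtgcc
H2-K1, chr17:34219272-34219571, minus strand: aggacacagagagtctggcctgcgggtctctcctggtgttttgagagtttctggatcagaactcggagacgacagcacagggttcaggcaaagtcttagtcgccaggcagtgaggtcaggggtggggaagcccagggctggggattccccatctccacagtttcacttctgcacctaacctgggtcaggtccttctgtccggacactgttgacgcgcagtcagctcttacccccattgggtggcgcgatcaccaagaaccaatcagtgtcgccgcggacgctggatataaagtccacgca
Gbp5 held both motifs, with the first base of the γ-activated site at -84 and that of the response element at -4 from the start. Rsad2 held the response element at -120, and H2-K1 held neither exact string in this window. Gbp4, whose promoter is not shown, also held neither. The search took exact matches only, so variant forms of either element would not be marked. Searched on both strands, GAAANNGAAA was present in 3.84% of 21757 promoters of the same length, in 23 of the 43 interferon-induced genes (53.5%) and in 3 of the 15 class I genes (20%). TTCNNNGAA, which reads the same on both strands, was present in 8.82% of all promoters, in 14 of 43 (32.6%) and in 2 of 15 (13.3%). A match describes the letters only.

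Across genes, 0 of 5483 passed edgeR's quasi-likelihood test for genotype in EAE after Benjamini-Hochberg adjustment (0%). At an unadjusted p under 0.05 there were 51 higher (0.93%) and 83 lower genes (1.51%), 134 in all (2.44%), and DESeq2 called 0 genes and gave 71 at an unadjusted p under 0.05. Of the 43 interferon-induced genes 18 had enough UMIs to be tested, 15 lay above 0 and 7 were higher at an unadjusted p under 0.05, namely Gbp5, Rsad2, Iigp1, Gbp2, Xaf1, Cxcl10 and Gbp4, and 1, Trim30a, was lower. The median log2 fold change of the 18 was 0.82 against -0.12 for all genes tested. The filter is on the total of all EAE libraries: 6 of the 18 reached 20 UMIs in fl EAE alone, of which 3 lay above 0, and 5 reached it in NestinCre EAE but not in fl EAE. The counts and the median therefore describe the genes tested and give no support for a direction of the list. For the class I list 9 of 15 genes were tested, all 9 lay above 0, 1 (H2-K1) was higher at an unadjusted p under 0.05, and the median was 0.98. Of these 9 genes 3 reached 20 UMIs in fl EAE alone and 3 in NestinCre EAE only, so the same limit holds. Fitted log2 fold changes were 3.07 ± 0.98 (SE) for Gbp5, 2.55 ± 0.90 (SE) for Rsad2, 2.24 ± 0.80 (SE) for Iigp1 and 1.61 ± 0.70 (SE) for Gbp4. With only the nuclei of 3 or more markers, 0 of 2128 genes passed edgeR's test (0%), with 35 higher (1.64%) and 132 lower (6.2%) at an unadjusted p under 0.05, 167 in all (7.85%). These nuclei still included some that failed the identity check, of 18477 UMIs in fl EAE 3 and of 3480 UMIs in NestinCre EAE 2. In that fit 8 of 11 interferon-induced genes lay above 0 with a median of 0.98, and 7 of 7 class I genes with a median of 1.13, against -0.11 for all genes. At an unadjusted p under 0.05, 5 of the 11 and 2 of the 7 were higher. The filter on the total is the same here, so these counts and medians also give no support for a direction.

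Medians of the other lists for genotype in EAE depended on which nuclei were used. In the fit on the 66 EAE nuclei the median log2 fold change was -0.06 over 14 endothelial identity genes, 0.01 over 14 barrier transporters, -0.01 over 9 genes of the Wnt programme and -0.01 over 7 capillary genes. With 3 or more markers these medians were 0.15 over 14 genes, 0.25 over 13, 0.32 over 8 and 0.37 over 6, against -0.11 for all genes. Pooled levels of fl EAE lean toward fl EAE 1, where endothelial identity genes were lowest. In the identity-checked nuclei the median log2 ratio of pooled levels was 0.22 over 14 identity genes and 0.28 over 13 transporters. It was 0.26 over 8 Wnt genes and 0.40 over 6 capillary genes, against 0.04 over 1848 genes. All 6 capillary genes were on the higher side, as were 968 of the 1848 genes. All 6 mural genes with enough UMIs were also on the higher side, with a median of 0.58. Tight junction genes had a median of 0.43 over 8 genes in the fit on the 66 EAE nuclei and 0.37 over 6 with 3 or more markers, and basement membrane genes 0.48 and 0.35 over 7 each. On the lower side, all 3 tested leukocyte adhesion genes, Alcam, Vcam1 and Cd99l2, lay below 0 with a median of -0.91, and both tested with 3 or more markers lay below 0 with a median of -1.19. The median of all genes in the fit on the 66 EAE nuclei was also below 0, at -0.12. Arterial genes had medians of -0.90 and -0.66 over 3 genes, and the list of angiogenesis and Notch genes -0.29 over 8 and -0.06 over 6. Venous genes had medians of 0.03 and 0.29 over 5 genes, and inflammatory genes -0.14 over 7 and 0.17 over 6. In the fit on the 66 EAE nuclei all 3 adhesion genes reached the minimum of UMIs in fl EAE alone, and only 2 of them in both groups. Of the basement membrane, venous and inflammatory genes, 2 each reached it in NestinCre EAE only. The filter is on the total here too, so the counts and medians of these lists give no support for a direction. Of 11 mural genes 6 were tested, all 6 lay above 0 with a median of 0.67, and 0 had an unadjusted p under 0.05 in edgeR's fit on the 66 EAE nuclei. Of these 6 genes, 5 reached the minimum in fl EAE alone and 1 reached it in NestinCre EAE only. In that fit the choroid plexus gene Ttr was at 3.05 ± 1.15 (SE), with an unadjusted p of 0.0144 in edgeR. With 3 or more markers the mural gene Rgs5 was at 0.90 ± 0.41 (SE) and the granule cell gene Cadps2 at -2.53 ± 1.01 (SE). Their unadjusted p in edgeR was 0.0447 and 0.0241, and none of these passed after adjustment. Single listed genes on the lower side at an unadjusted p under 0.05 in the fit on the 66 EAE nuclei included Slc22a8, an organic anion transporter of the barrier, at -1.87 ± 0.81 (SE), the Wnt co-receptor Lrp6 at -1.56 ± 0.74 (SE) and the adhesion molecule Alcam at -2.12 ± 0.71 (SE). With 3 or more markers their unadjusted p in edgeR was 0.0685, 0.110 and 0.139. In that fit Ly6c1 at 0.98 ± 0.39 (SE), Slc2a1 at 0.89 ± 0.41 (SE) and Fn1 at 1.18 ± 0.47 (SE) were on the higher side at an unadjusted p under 0.05, and none passed after adjustment. Slc22a8 gave 6, 3, 8 and 5 UMIs in the identity-checked nuclei of fl EAE, 2, 0, 1 and 2 in NestinCre EAE and 15 in NestinCre naive. Of the Alcam UMIs, 91 lay in nuclei that failed the identity check against 24 in those that passed.

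**Figure D5:**
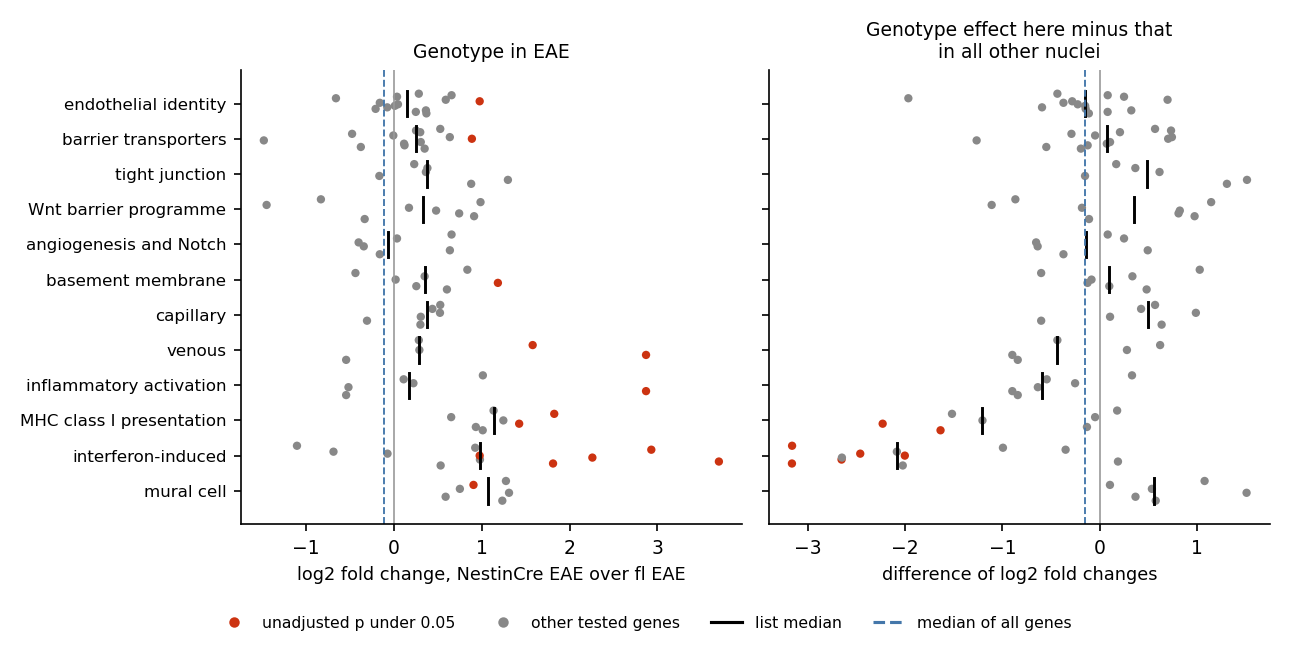
Log2 fold change of NestinCre EAE over fl EAE for tested genes of each list in the nuclei with 3 or more markers (left), and the difference between that value and the one in all other nuclei (right). Vertical bars mark list medians, which are 1.13 for MHC class I and 0.98 for the interferon-induced list on the left, and the dashed line marks the median of all genes. Genes entered by their total UMIs over all EAE libraries, so the medians give no support for a direction.

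Fibronectin (Fn1), a matrix protein of the vessel wall, was at 340, 533, 777 and 778 CPM in the identity-checked nuclei of fl EAE and at 1422, 1289, 803 and 1496 in NestinCre EAE, without overlap, and at 502 to 658 in the naive libraries. The margin was narrow, at 778 in fl EAE 4 against 803 in NestinCre EAE 3, which held 2 nuclei. Of 1848 genes with 20 or more UMIs in these EAE nuclei, 22 (1.19%) were higher in every NestinCre EAE library and 24 (1.3%) were lower. Among listed genes Fn1, Gbp4 and Tmem252 were on the higher side. So was Cldn5, a selection marker, which is given only as a description. The genes with the smallest p in edgeR's fit on the 66 EAE nuclei, none of which passed, were Gfra1, Lyrm1, Col5a2, Apod and Fras1 on the higher side and Eln, Tll1, Arpp21, Ccbe1 and Zc3hav1 on the lower side. Eln, which encodes elastin of arterial walls, gave 21, 1, 0 and 30 UMIs in fl EAE, each of the large values from 1 nucleus, 0 in NestinCre EAE and fl naive and 16 in NestinCre naive. Zc3hav1, an antiviral RNA-binding protein, gave 7, 3, 4 and 6 UMIs in fl EAE and 1, 1, 0 and 1 in NestinCre EAE, without overlap. Apod, a lipid carrier, gave 6 UMIs in fl EAE, 35 in NestinCre EAE, 0 in fl naive and 8 in NestinCre naive. Of the counts of Gfra1, 1 UMI lay in identity-checked EAE nuclei.

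The genotype difference in interferon-induced genes was not confined to endothelial nuclei. In all other nuclei of the same libraries the list was at 0.0201% in fl EAE and at 0.0830% in NestinCre EAE, a ratio of 4.14, against 0.0190% in fl naive and 0.0177% in NestinCre naive. The MHC class I list was at 0.00883% and 0.0394%, a ratio of 4.46. The level in endothelial nuclei was therefore above that of the other nuclei in every group, whereas its ratio between genotypes was smaller. In microglia-like nuclei the interferon-induced list was at 0.120% and 0.582%, in mural-like nuclei at 0.0191% and 0.0480% and in fibroblast-like nuclei at 0.151% and 0.603%.

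A test within libraries set the genotype effect in the 66 nuclei of the rule in the EAE libraries against that in all other nuclei of the same library. Since nuclei that failed the identity check held 70.9% of the UMIs of the 66, and 85.5% in NestinCre EAE 4, it is not a test of the ratios of the identity-checked nuclei. With edgeR 0 of 5483 genes passed (0%), and at an unadjusted p under 0.05 there were 24 with a larger (0.438%) and 108 with a smaller effect (1.97%) in the nuclei of the rule. Of 18 interferon-induced genes 17 had the smaller effect, 9 of them at an unadjusted p under 0.05, and the median difference of log2 fold changes was -2.11 against -0.18 for all genes. Of 9 class I genes 8 had the smaller effect, 5 at an unadjusted p under 0.05, with a median of -2.07. Slfn5, Sp100, Zc3hav1, Trim30a and Ly6a had the smallest p. For Ly6a the difference was -2.40 ± 0.50 (SE), with a Benjamini-Hochberg adjusted p of 0.0763 in edgeR, and Ly6a was at 1.11 and 8.48 CPM in the other nuclei. With 3 or more markers 0 of 2128 genes passed (0%), and 15 (0.705%) had a larger and 113 (5.31%) a smaller effect at an unadjusted p under 0.05. The medians were then -2.08 over 11 interferon-induced genes and -1.20 over 7 class I genes, against -0.15 for all genes.

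Markers of other cells were counted in the same identity-checked nuclei. The 9 microglia and macrophage genes made up 0.0107% to 0.0259% of UMIs in fl EAE, 0.0321% to 0.129% in NestinCre EAE and 0.0329% to 0.0865% in the naive libraries. In NestinCre EAE 37 such UMIs were seen, 12 of them of F13a1 and 6 of C1qa, against 571 UMIs of the interferon-induced list, while Csf1r was at 0 by selection. The 12 F13a1 UMIs came from 1 nucleus of NestinCre EAE 2, which held 18 UMIs of this list. It is the Scrublet-marked nucleus that gave most venous and inflammatory UMIs of that library. The T cell genes Cd3e, Cd3g, Themis and Cd247 were at 0 in every group and Skap1 gave 1 UMI. The mural list ran from 0.0830% to 0.457% in fl EAE and from 0.284% to 1.37% in NestinCre EAE. Mature oligodendrocyte genes were at 0.0872% ± 0.0391 (SD, n = 4) in fl EAE and 0.120% ± 0.0451 (SD, n = 4) in NestinCre EAE. Astrocyte genes were at 0.0814% ± 0.0403 and 0.123% ± 0.0745 (SD, n = 4 each), and granule cell genes at 0.161% and 0.109%. Ependymal and choroid plexus genes gave 6 and 18 UMIs, or 0.00604% ± 0.00507 and 0.0365% ± 0.0424 (SD, n = 4 each). Thus the microglia and macrophage, mural, oligodendrocyte, astrocyte and ependymal lists each had a higher mean in NestinCre EAE, as the interferon-induced list did, and the granule cell list had a lower one. The part of these markers and of free RNA in the results was not tested.

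The targeted gene could not be followed here. Il12rb2 gave 1 UMI in the identity-checked nuclei, in fl EAE 1, and 14 UMIs in the 26 nuclei that failed the check. In the identity-checked nuclei Il12rb1 and Stat4 gave 0, and a count of 0 in the pooled NestinCre EAE nuclei allows up to 59.2 CPM for each gene (exact 95% Poisson). In all other nuclei Il12rb2 was at 13.4 to 13.9 CPM in the 4 groups, and a UMI count over the gene does not separate the floxed from the recombined allele. Of the interferon receptors, Ifnar1 gave 10 UMIs in fl EAE and 12 in NestinCre EAE, Ifnar2 gave 11 and 13, Ifngr1 gave 3 in each and Ifngr2 gave 0 and 3.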

How the data were processed

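Nuclei sorted by Hoechst staining were sequenced in 11 droplet libraries. The deposited values were raw UMI counts per gene and barcode in filtered matrices, made by the authors with Cell Ranger 7.0.0 in run 1 and 6.0.2 in runs 2 and 3, per the file headers, whereas the submitters' processing notes name 6.0.2 and GRCm39. From these counts, nuclei were chosen as described, and their UMIs were summed per library. Library totals ran from 40761007 to 86063464 UMIs. Endothelial nuclei and gene lists were chosen with earlier results of these data known.

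Sums were tested with edgeR 4.0.16 (R 4.3.3) by the quasi-likelihood test with TMM factors and sequencing run as a covariate, on genes with at least 20 UMIs over the libraries of the fit, with Benjamini-Hochberg adjustment at 0.05. The comparison with all other nuclei used the library as a block. DESeq2 1.42.0 was an alternative. Shares were compared by exact two-sided permutation tests (scipy 1.17.1). Labels do not say more than that each library is a separate sample, so p-values measure the spread between these libraries. Intervals are exact, at 95%, and cover counting error only. In bulk sums, fewer nuclei and less RNA per nucleus cannot be told apart, and free RNA can add UMIs of genes a nucleus does not express.

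Doublets were scored with Scrublet in scanpy 1.11.5 at 0.8% per 1000 barcodes and 30 principal components, and were kept, with an alternative without them. Genes named were selection markers, members of the fixed lists, the leading genes of the nuclei and the 5 genes with the smallest p in each direction of a comparison. A few genes that this rule names are not reported here. Which of these are given in most detail was chosen after their values were seen. Coordinates came from GENCODE on GRCm39, in which 25613 of 25827 gene identifiers were found. In simulated counts for genotype in EAE (5483 genes), 15.2% of genes changed by 4-fold and 81.2% of those changed by 16-fold were called. For EAE against naive and the interaction (6629 genes) 0% were called at either size.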

Additional observations from a re-analysis of the deposited data

Results flagged for a closer look

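In the identity-checked nuclei 3 values of fl EAE stood apart from the other 3 libraries of the group by Dixon's criterion, out of 36 groups examined, where chance gives about 1 in 20. The arterial list was highest in fl EAE 4, at 0.239% of UMIs, where 40 of its 46 UMIs came from 1 nucleus. The glucocorticoid-responsive list was lowest in fl EAE 1, at 0.0834%. The mural cell list was lowest in fl EAE 4, at 0.0830%.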

How the results depend on the processing

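The difference in the share of nuclei of the rule, NestinCre EAE minus fl EAE, changed sign with 3 or more markers (-0.00622 percentage points), without doublet-scored nuclei (-0.000565), within run 1 (-0.00280) and without single libraries, where it ran from -0.00950 (without NestinCre EAE 4) to 0.00776. EAE minus naive changed sign with 3 or more markers (-0.0112), with no exclusions (-0.00735) and without doublet-scored nuclei (-0.00155), was 0.0276 within run 2, and ran from -0.0164 (without fl naive 3) to 0.0181 (without NestinCre naive 2), with -0.00403, -0.000297, -0.00224 and -6.56e-06 without NestinCre EAE 4, fl EAE 2, fl EAE 4 and fl naive 2. No gene was called for genotype in EAE except 2 with no filter (Eln and Cpne4) and 1 with the replicate block (Eln, -5.56). Deviations of same-numbered libraries correlated at 0.0953, 0.124 and 0.0903 for replicates 1 to 3. These sums rest on few nuclei, so the values do not decide whether the numbers pair libraries. The block also joined the libraries called replicate 4, which carry no number in their labels and correlated at 0.286. For EAE against naive DESeq2 called 105 genes in fl. In NestinCre 22 were called with no filter, 79 without TMM factors, 110 with DESeq2 and 0 to 91 without single libraries, with 8 without fl EAE 1, 5 without fl EAE 3, 44 without NestinCre EAE 1 and 91 without NestinCre EAE 2. The interaction called 2 with no filter, 4 without TMM factors, 1 with DESeq2 and 0 to 48 without single libraries, the 48 without NestinCre EAE 2. The comparison with other nuclei called 25 with no filter. The causes were not tested. None of the 115 list values moved by as much as the pooled SD between libraries. Leaving out 1 EAE library cannot move a difference of means that far, so for those settings this outcome was fixed in advance. Of the 115 values, 6 turned below 0, each for the adhesion list and genotype in EAE, from 0.00449 percentage points to between -0.0198 and -0.00466. Over 33 named genes 476 values moved by less than 2 SE of the main fit and 12 by more. The 12 were Gbp5 without fl EAE 4 (log2 fold change 7.01) and without NestinCre EAE 4 (6.75), Lrp6 without the same libraries (-3.15 and -3.07), H2-K1 (5.25), Fn1 (3.48) and Cldn5 (2.48) with no granule cell UMI allowed, 4 values of Arpp21 (-7.35 to -4.68) and Cadps2 with 3 or more markers (-2.53). Without TMM factors the median log2 fold change of all genes in EAE against naive went from 1.11 to 0.28 in fl and from 0.88 to 0.24 in NestinCre. Fits on libraries with 10 or more nuclei, and fits of EAE against naive without a naive library, could not be made.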

Other observations

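Glucocorticoid-responsive genes, 10 in all, made up 0.156% ± 0.0486 (SD, n = 4) of the UMIs of the identity-checked nuclei in fl EAE, 0.221% ± 0.0676 (SD, n = 4) in NestinCre EAE, 0.0768% in fl naive and 0.137% in NestinCre naive, and every EAE library except fl EAE 1, at 0.0834%, lay above all naive libraries. Zbtb16, a transcription factor that glucocorticoids induce, gave 4, 8, 6 and 11 UMIs in fl EAE, 12, 7, 2 and 6 in NestinCre EAE, 0 in both fl naive libraries and 8 in NestinCre naive. Cdkn1a, a cell cycle inhibitor, gave 3 UMIs in 3 of 22 nuclei of fl EAE and 16 UMIs in 11 of 21 nuclei of NestinCre EAE. The kinase Sgk1 gave 16 and 4.

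Basement membrane genes, 12 in all, made up 0.301% ± 0.101 (SD, n = 4) in fl EAE and 0.417% ± 0.0677 (SD, n = 4) in NestinCre EAE, with overlapping libraries. MHC class II genes gave 23 UMIs in fl EAE, 19 of them in 1 nucleus of fl EAE 1 that Scrublet marked as a doublet, 12 in NestinCre EAE, 0 in fl naive and 1 in NestinCre naive. The 7 interferon receptor and kinase genes were at 0.0524% ± 0.0203 (SD, n = 4) in fl EAE and 0.0795% ± 0.0210 (SD, n = 4) in NestinCre EAE, at 0.105% and 0.185% in the fl naive libraries, the latter from 3 UMIs of 1 nucleus, and at 0.0809% in NestinCre naive. Nes, whose promoter drives the Cre, gave 2 UMIs in fl EAE, 3 in NestinCre EAE, 1 in fl naive and 9 in NestinCre naive.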
